A study of Mus musculus with 8 samples.

Results

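The mouse mitochondrial genome carries its own set of genes, and all 37 of them appear among the 54532 genes of the deposited expression table of the duodenum. They were taken by symbol alone, as every gene whose name begins with mt-. The set holds 13 protein genes, 2 rRNA genes and 22 tRNA genes. Of these genes 28 lie on the plus strand in the authors' annotation, read here as the genes transcribed from the heavy strand, and 9 lie on the minus strand, mt-Nd6 and 8 tRNA genes, transcribed from the light strand. The duodenum came from Zeb2+/- mice, which carry a global heterozygous knockout of the zinc-finger repressor Zeb2 and serve as a model of Mowat-Wilson syndrome, and from WT (Zeb2+/+) mice, with 4 libraries of each genotype. The series asked about the growth retardation seen in that syndrome. The sources used here give neither age, sex, strain or time of sampling, nor whether each library is a separate animal, so the p-values below measure the spread between these samples, which may be partly technical. The knockout was not restricted to the gut, and the RNA came from tissue of mixed cell types, so a lower share of a cell type and less RNA per cell cannot be told apart here.

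Mitochondrial DNA is transcribed from both strands into long precursors in which tRNAs stand between most of the messengers. Cleavage at the tRNA ends releases the messengers and the rRNAs, and the messengers then receive poly(A) tails, which in several cases complete the stop codon. The proteins are core subunits of respiratory complexes I, III and IV and of the ATP synthase, complex V, and every one of them works together with nuclear-encoded partners. Absorptive cells of the gut rely on ATP made in this way for active nutrient uptake. The libraries were made from RNA bound to poly-T beads and kept strand information, so a mitochondrial RNA is seen here only through molecules that bound those beads. Mature mitochondrial tRNAs end in CCA and not in poly(A), and in human cells the ND6 messenger is known to lack a poly(A) tail, so levels of different classes are not set against each other as molecule numbers. Neither the strand setting of the counting nor the handling of reads that map to several places is stated in the labels.

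Reads per gene could be rebuilt from the deposited FPKM, which scale fragments by gene length and library size, and they came to between 13579347 and 17137417 a library. The library size implied by the FPKM was not this sum: it was 0.733 to 1.16 times as large in Zeb2+/- libraries and 0.798 to 0.956 times as large in WT libraries, and the labels do not state how it was set. Zeb2 itself stood at 0.173 to 0.488 FPKM in Zeb2+/- libraries and 0.760 to 1.19 FPKM in WT libraries, without overlap. Pearson correlations of log2(FPKM + 1) between libraries were 0.902 to 0.971 within Zeb2+/-, 0.972 to 0.981 within WT and 0.890 to 0.956 between genotypes, so the Zeb2+/- libraries stood further apart. Defining genes of the duodenal epithelium (Pdx1, Gata4, Cdx2, Fabp1, Apoa4, Sis and Alpi among them) were present in every library, while Onecut1, another duodenal factor, was below 1 FPKM in all 8.

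Reads from mitochondrially encoded genes took a larger share of the Zeb2+/- libraries. They made up 7.76, 8.14, 8.76 and 7.28% of all reads assigned to genes in Zeb2+/- libraries 1 to 4, against 5.20, 4.88, 5.29 and 5.48% in WT libraries 1 to 4. Every Zeb2+/- library lay above every WT library, with means of 7.98 ± 0.626% and 5.21 ± 0.252% (SD, n = 4 each). The gap was present in each class of gene and overlapped in none. Protein genes took 7.75 ± 0.606% of reads in Zeb2+/- and 5.08 ± 0.235% in WT, the rRNA genes 0.219 ± 0.0541% in Zeb2+/- and 0.124 ± 0.0240% in WT, and the tRNA genes 0.0171 ± 0.00245% in Zeb2+/- and 0.0103 ± 0.000785% in WT. A share of reads does not depend on the scale of the FPKM. It does depend on what else is in the library, and no p is given for it because it is a sum over genes chosen with earlier results known.

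**Figure D1:**
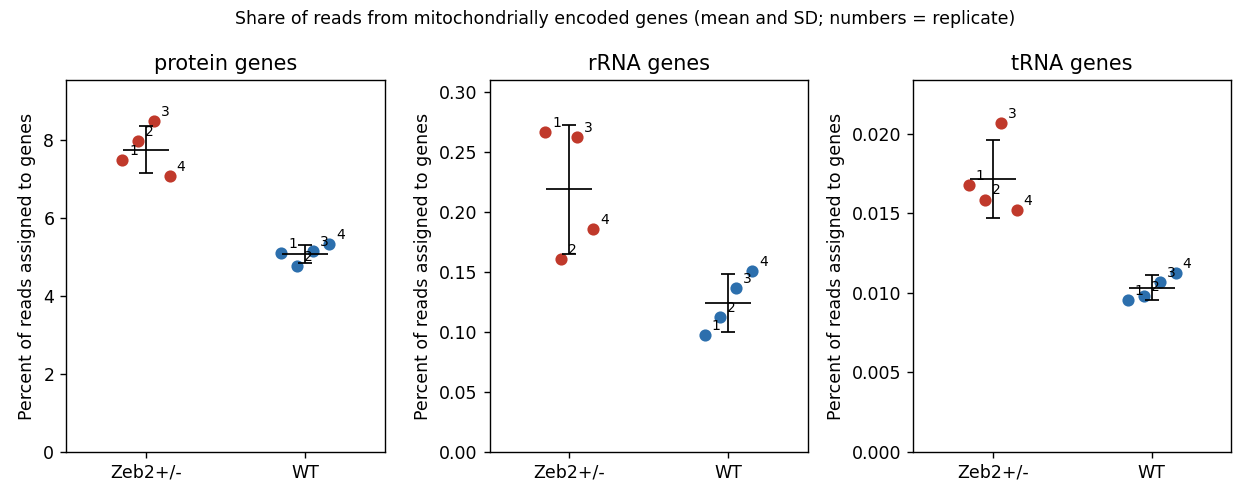
Percent of all reads assigned to genes (linear axes from 0) that fell on the protein, rRNA and tRNA genes of the mitochondrial genome in 4 Zeb2+/- and 4 WT libraries; points are libraries numbered by replicate, and bars are the mean and SD. In each panel every Zeb2+/- library lies above every WT library.

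Gene by gene, most of the set stood higher in Zeb2+/- but few passed the test over all genes. Of the 37 genes, 33 had a mean of at least 1 FPKM and entered limma's test on log2(FPKM + 1), with Benjamini-Hochberg adjustment over 12190 genes. Of these 33, 31 had a positive log2 fold change (Zeb2+/- over WT), and the median was 0.78, against 0.00 for all genes tested. The tRNA genes mt-Tg, mt-Ts2 and mt-Te rose at an adjusted p below 0.05, and 0 of the 33 fell; over all genes tested 0.468% were called higher and 3.24% were called in either direction. At an unadjusted p below 0.05, 18 of the 33 were higher, against 10.02% of all genes, and 1, mt-Ts1, was lower, against 8.91%. In 10 of the 33 all 4 Zeb2+/- libraries lay above all 4 WT libraries, against 7.65% of all genes.

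**Figure D2:**
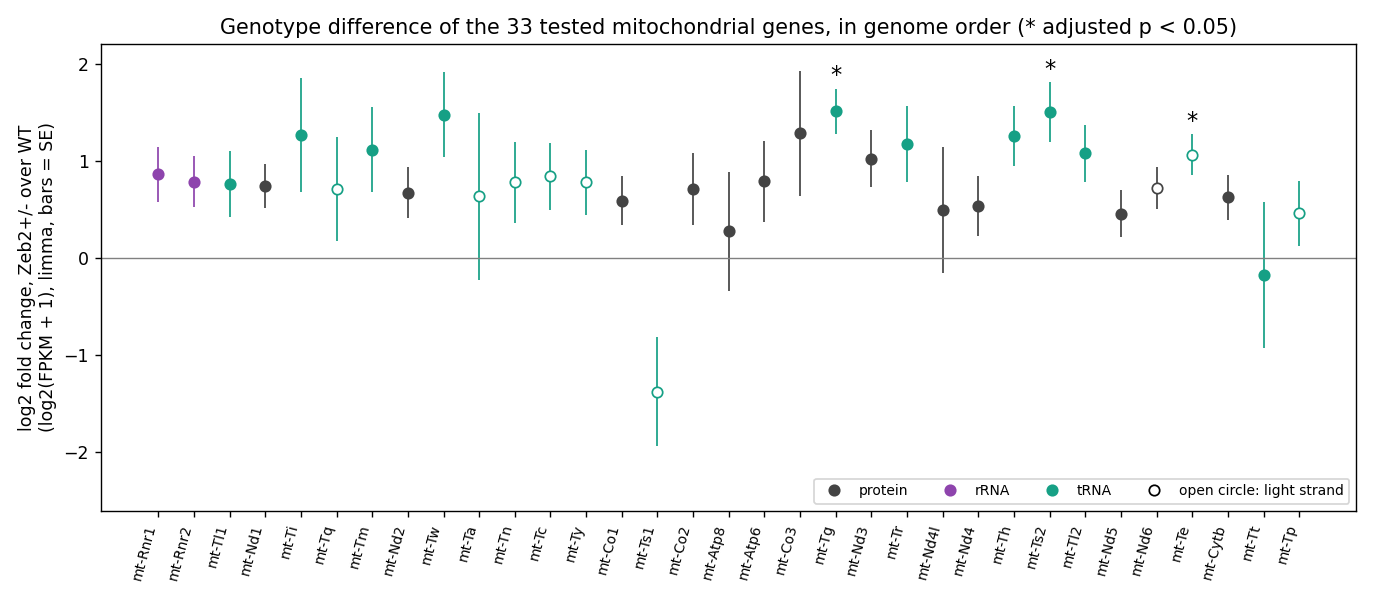
Log2 fold change of Zeb2+/- over WT on the log2(FPKM + 1) scale for the 33 tested mitochondrial genes in genome order, with limma's standard error as bars; colour gives the class, open circles mark light-strand genes and asterisks an adjusted p below 0.05. Values lie above 0 for 31 genes, and mt-Tg, mt-Ts2 and mt-Te carry an asterisk.

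The messengers as a group stood higher in Zeb2+/-, but none of them passed the test as reported here. All 13 had a positive log2 fold change, from 0.27 for mt-Atp8 to 1.28 for mt-Co3 with a median of 0.67, but by limma 0 of 13 passed the adjusted threshold (adjusted p of 0.113 to 0.855). At an unadjusted p below 0.05, 6 were higher, against 10.02% of all genes. The 3 whose libraries did not overlap, against 7.65% of all genes, were mt-Nd1, mt-Nd6 and mt-Cytb. Their last 30 bases are shown here, 5′ to 3′, with the stop codon, or the lone T that a poly(A) tail completes, in capitals, because this is the end at which mitochondrial messengers, mt-Nd6 being a reported exception in human cells, receive their tails; mt-Nd4 and mt-Co3 are the other 2 messengers that end in an incomplete stop in the annotation. Sequences and positions are those of GENCODE M21 on GRCm38.
mt-Nd1 (chrM:3678-3707, plus strand): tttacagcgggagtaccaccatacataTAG
mt-Nd6 (chrM:13552-13581, minus strand): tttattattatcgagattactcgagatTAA
mt-Cytb (chrM:15259-15288, plus strand): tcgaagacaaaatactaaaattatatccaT
mt-Nd4 (chrM:11515-11544, plus strand): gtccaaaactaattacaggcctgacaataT
mt-Co3 (chrM:9361-9390, plus strand): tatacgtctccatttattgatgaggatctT
As annotated, the 3 messengers whose libraries did not overlap include both kinds of ending and both strands. The last 2 bases of mt-Nd1 are also the first 2 of the tRNA gene mt-Ti on the same strand. mt-Nd2 likewise overlaps the tRNA gene mt-Tw by 2 bases. Where these messengers are cut was not tested, so their complete stops hold for the annotation only. The longest inner runs of A were 6 bases in mt-Nd1, 3 in mt-Nd6 and 5 in mt-Cytb.

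Complex I, the NADH dehydrogenase that feeds electrons into the chain, takes 7 of its core subunits from the mitochondrial genome. mt-Nd1, a membrane-arm subunit next to the ubiquinone site, stood at 9015, 11071, 14764 and 9399 FPKM in Zeb2+/- libraries 1 to 4, against 6083, 6154, 6784 and 6958 FPKM in WT libraries 1 to 4. The lowest Zeb2+/- library was well above the highest WT library, and the log2 fold change was 0.74 (SE 0.23, adjusted p = 0.131). mt-Nd6, the only messenger of the light strand, had 2798, 3211, 3963 and 2561 FPKM in Zeb2+/- libraries, against 1685, 1606, 2140.4 and 2132 FPKM in WT libraries, again without overlap, at 0.72 (SE 0.21, adjusted p = 0.122). mt-Nd2, a proton-pumping subunit, stood at 3161, 5421, 6878 and 4414 FPKM in Zeb2+/- and 2867, 2783, 3291 and 3071 FPKM in WT. Zeb2+/- library 1 fell among the WT libraries and the other 3 lay above them, at 0.67 (SE 0.26, adjusted p = 0.213). Of the other large proton-pumping subunits, mt-Nd4 had 2605, 5774, 6765 and 4291 FPKM in Zeb2+/- and 3109.5, 2793, 3549 and 3218 FPKM in WT (0.53, SE 0.30), and Zeb2+/- library 1 was below every WT library. For mt-Nd5 the values were 2269.9, 3971, 4018 and 2967 FPKM in Zeb2+/- and 2162, 2056, 2928 and 2325 FPKM in WT (0.46, SE 0.25), with Zeb2+/- library 1 inside the WT range and the other 3 above it. The 2 small membrane subunits were low and variable. mt-Nd3 had 171, 134, 185 and 114 FPKM in Zeb2+/- and 51.4, 128, 75.4 and 56.3 FPKM in WT (1.02, SE 0.29, adjusted p = 0.113), overlapping through WT library 2. Leaving out 1 library changed the call of 2 of these genes: without Zeb2+/- library 1 mt-Nd2 was called higher (0.0417; 0.0239 to 0.419 over 24 settings), and without WT library 2 mt-Nd3 was (0.0306; 0.0306 to 0.337). mt-Nd4l had 104, 314, 110.5 and 79.0 FPKM in Zeb2+/- and 289, 70.9, 104 and 33.4 FPKM in WT, and a single high library in each genotype (Zeb2+/- 2 and WT 1) stood far above the rest.

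Messengers of complexes III, IV and V had positive log2 fold changes too, with a wide spread in all but mt-Cytb and mt-Co1. mt-Cytb, the haem-bearing core of complex III, stood at 9659, 13556, 15941 and 10874 FPKM in Zeb2+/- and 7804, 7247, 8727 and 8146 FPKM in WT. The genotypes did not overlap, and the log2 fold change was 0.62 (SE 0.23, adjusted p = 0.195); over 24 settings it ran from 0.084 with quantile normalization to 0.74, with adjusted p of 0.0304 to 0.672. mt-Co1, the catalytic subunit of cytochrome c oxidase, had the highest mean FPKM of the set in these poly-T selected libraries. It stood at 20349, 29407, 35606 and 24494 FPKM in Zeb2+/- and 16742, 15837, 20577 and 18578 FPKM in WT. The genotypes overlapped by the narrow margin between Zeb2+/- library 1 and WT library 3, at 0.59 (SE 0.25, adjusted p = 0.255). With quantile normalization, which gives equal values to equal ranks, mt-Co1 was at 0, and over 24 settings it ran from 0 to 0.72 with adjusted p of 0.0426 to 1. mt-Co2, which takes electrons from cytochrome c, had 475, 744, 995 and 569 FPKM in Zeb2+/- and 284, 254, 613 and 637 FPKM in WT (0.71, SE 0.37). Its WT libraries fell into a low pair and a high pair, and the high pair reached into the Zeb2+/- range. mt-Co3, the remaining mitochondrial subunit of complex IV, had 539.8, 415, 1137 and 394 FPKM in Zeb2+/- and 193, 79.4, 773 and 239.7 FPKM in WT (1.28, SE 0.64), with WT library 3 far above the other WT libraries. In complex V, mt-Atp6, part of the proton channel, had 381, 992, 1166 and 524 FPKM in Zeb2+/- and 244, 563, 544 and 347 FPKM in WT (0.79, SE 0.41). mt-Atp8, its small neighbour whose gene overlaps mt-Atp6 by 43 bases, had 4.48, 27.8, 47.2 and 9.94 FPKM in Zeb2+/- and 10.4, 10.1, 16.5 and 16.7 FPKM in WT (0.27, SE 0.61, adjusted p = 0.855), on 17 to 115 reads a library. Its Zeb2+/- values spread over a 10.5-fold range around the WT values, so mt-Atp8 showed no difference larger than its spread, and without Zeb2+/- library 3 its log2 fold change was -0.23.

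**Figure D3:**
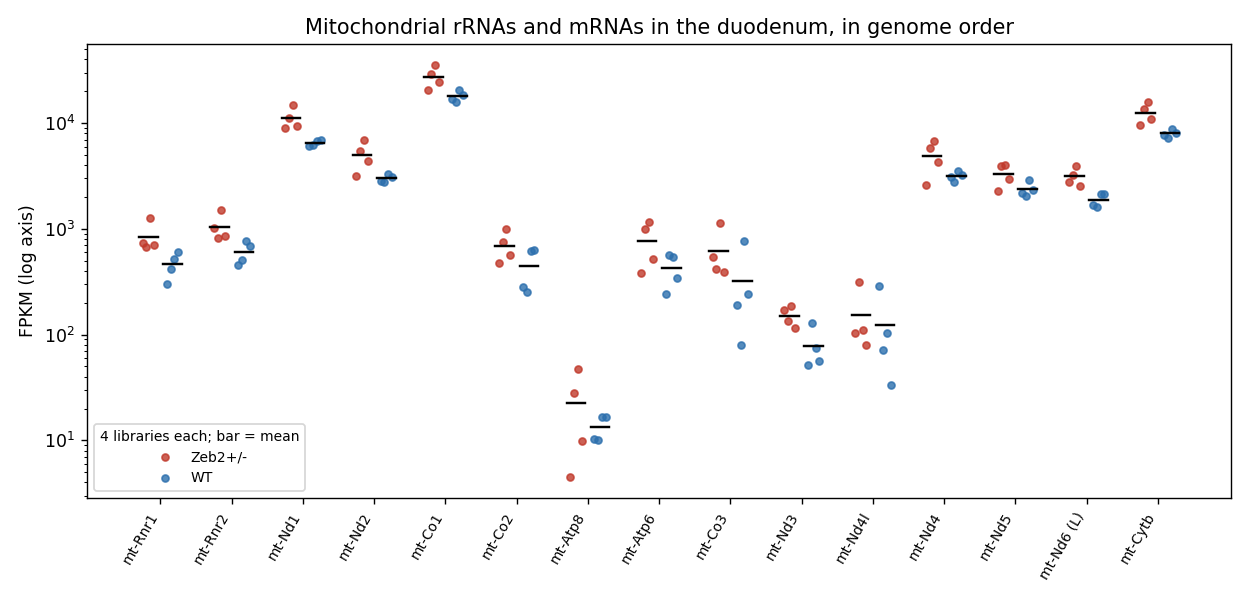
FPKM (log axis) of the 2 rRNAs and 13 messengers of the mitochondrial genome in genome order, with 4 Zeb2+/- libraries to the left of 4 WT libraries for each gene, bars at the means, and (L) for the light-strand gene. The Zeb2+/- mean is above the WT mean for all 15 genes, while for 10 of the 13 messengers the libraries overlap.

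How many of these messengers passed depended on the scale of the libraries and on the model. With the deposited scale kept, limma with array weights called mt-Nd1 (adjusted p = 0.0243), mt-Nd2 (0.0239), mt-Nd6 (0.0405) and mt-Cytb (0.0425) higher, where 4.04% of all genes were called higher. On the same scale, limma without the trend and robust options called mt-Nd1 (0.0477), where 69 of 12190 genes were called higher. With the deposited FPKM, Zeb2+/- library 3 was the highest of the 4 Zeb2+/- libraries for 12 of 13 messengers and Zeb2+/- library 1 the lowest for 9 of 13; these are the libraries with the smallest (0.733) and the largest (1.16) ratio of implied to rebuilt total. The median over the 13 messengers of the log2 difference from the WT mean was 0.19, 0.85, 1.19 and 0.45 in Zeb2+/- libraries 1 to 4, and -0.12, -0.18, 0.19 and 0.04 in WT libraries 1 to 4. When each library was divided by its own rebuilt total in place of the authors' scale, a setting chosen after seeing the data, the SD of log2 values among Zeb2+/- libraries was 0.095 for mt-Co1 (0.35 as deposited), 0.10 for mt-Cytb (0.32) and 0.16 for mt-Nd1 (0.32). On that scale 7 of 13 messengers did not overlap between genotypes, mt-Nd1, mt-Nd2, mt-Co1, mt-Nd4, mt-Nd5, mt-Nd6 and mt-Cytb, against 5.71% of all genes. The median log2 fold change of the messengers was 0.67 on both scales. With limma 6 of the 33 genes then rose, 4 of them messengers: mt-Nd1 (adjusted p = 0.0252), mt-Nd2 (0.0410), mt-Nd6 (0.0417) and mt-Cytb (0.0358). The share of all genes called higher on that scale was 0.193%. limma's voom on the rebuilt reads, with the same totals, called mt-Nd1 (adjusted p = 0.0230), mt-Nd2 (0.0348), mt-Co1 (0.0481), mt-Nd6 (0.0347) and mt-Cytb (0.0337) higher, against 0.123% of all genes, and 0 tRNA genes. With the totals that the deposited FPKM imply, voom called mt-Tg alone of the 33 (adjusted p = 0.0362), against 0.377% of all genes called higher, and mt-Nd1 stood at an adjusted p of 0.146. Over 24 settings the limma and voom adjusted p of mt-Nd1 ran from 0.0218 to 0.327 and its log2 fold change from 0.38 to 0.83.

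Part of the mitochondrial genome has near-identical nuclear copies, and the 5 messengers copied almost whole were among the low and variable ones. In GENCODE M21 on GRCm38, 7 pseudogenes lie side by side on chromosome 1 (24611535 to 24616197, minus strand), in the order of the mitochondrial genes they copy. Gm28661 was identical to mt-Co2 over 681 of 681 aligned bases, Gm10925 to mt-Atp6 over 678 of 678, Gm28437 to mt-Co3 over 783 of 783, Gm28438 to mt-Nd3 over 342 of 342, Gm10222 to mt-Nd4l over 294 of 294 and Gm28439 to mt-Nd4 over 876 of 876. The first bases of Gm29216 lay outside its alignment with mt-Co1. From base 10 on, Gm29216 copied the last 483 bases of mt-Co1 with 1 difference. This difference is shown here in capitals within a stretch that is otherwise the same.
mt-Co1 (chrM:6390-6423, plus strand): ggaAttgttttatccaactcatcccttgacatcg
Gm29216 (chr1:24616155-24616188, minus strand): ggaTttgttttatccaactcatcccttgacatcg
Of all 50-base windows in a gene, the share that also occurs in an annotated nuclear transcript was 100% for mt-Co2, 99.9% for mt-Co3, 99.5% for mt-Atp6, 98.8% for mt-Nd4l and 98.0% for mt-Nd3. It was 62.2% for mt-Nd4, 51.1% for mt-Co1, 8.19% for mt-Nd2, 7.61% for mt-Nd5, 1.04% for mt-Rnr2, and 0% for mt-Nd1, mt-Nd6, mt-Cytb, mt-Atp8, mt-Rnr1 and every tRNA gene. The unannotated gaps of the chromosome 1 block are as long as the stretches that hold mt-Ts1 and mt-Td (140 bases), mt-Tk and mt-Atp8 (233) and mt-Tg (69), and within 1 base of the one that holds mt-Tr (74 against 73), so a copy of those genes in the gaps cannot be judged from transcripts.

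The 5 messengers with almost all windows shared had mean levels of 151 to 766 FPKM in Zeb2+/- and 77.8 to 447 FPKM in WT. Among the other 8, mt-Atp8 was lower still and the remaining 7 stood at 3133 FPKM or more in Zeb2+/- and 1891 FPKM or more in WT. Within WT the highest library exceeded the lowest 9.74-fold for mt-Co3 and 8.64-fold for mt-Nd4l, against 1.14-fold for mt-Nd1, 1.18-fold for mt-Nd2 and 1.20-fold for mt-Cytb. Of the reads given to a gene and its copy together, the copy held 23.4 to 34.8% for mt-Co2 in Zeb2+/- and 19.9 to 30.5% in WT, and for mt-Co3 11.1 to 27.6% in Zeb2+/- and 8.09 to 41.9% in WT. For mt-Co1 the copy held at most 0.543% in Zeb2+/- and 0.684% in WT. Of the 7 pseudogenes themselves 7 had a positive log2 fold change, against 6126 of all 12190 genes tested. By limma's test 1 of the 7 passed the threshold, against 0.468% of all genes called higher. This was Gm10925, at 333 ± 95.0 FPKM in Zeb2+/- and 142 ± 28.5 FPKM in WT (SD, n = 4 each; log2 fold change 1.19, SE 0.24, adjusted p = 0.0316). Reads of identical pairs cannot be assigned to either member, so the values of mt-Co2, mt-Co3, mt-Atp6, mt-Nd3 and mt-Nd4l are uncertain. Reads from the identical stretches of mt-Nd4 and mt-Co1 share this limit. For the 4 messengers with no window in an annotated nuclear transcript (mt-Nd1, mt-Nd6, mt-Cytb and mt-Atp8) the median log2 fold change was 0.67, as for all 13. A copy of mt-Atp8 in an unannotated gap could not be judged. mt-Nd1, mt-Nd6 and mt-Cytb themselves stood at 0.74, 0.72 and 0.62.

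**Figure D4:**
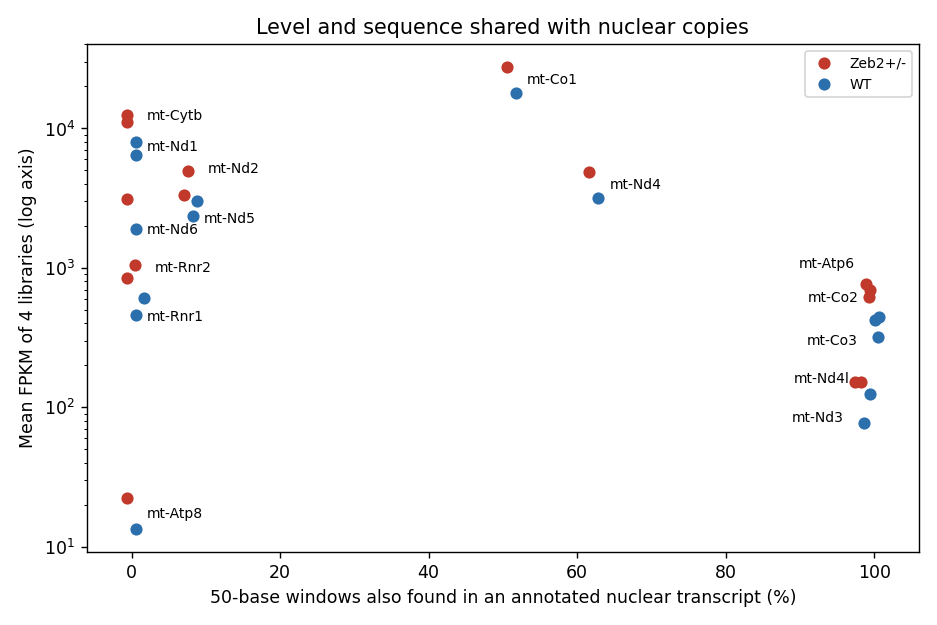
Mean FPKM of 4 libraries (log axis) in Zeb2+/- (left point) and WT (right point) for 13 messengers and 2 rRNAs against the percent of their 50-base windows found in an annotated nuclear transcript; points of a gene are set slightly apart for legibility. The 5 messengers near 100% have means of 766 FPKM or less.

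Both rRNAs had higher values in Zeb2+/-. mt-Rnr1 (chrM:70-1024, plus strand), the rRNA of the small mitochondrial ribosomal subunit, had 735, 668, 1258 and 708 FPKM in Zeb2+/- and 304, 420.4, 520.5 and 604 FPKM in WT. The genotypes did not overlap, Zeb2+/- library 3 stood far above the other 3, and the log2 fold change was 0.86 (SE 0.28, adjusted p = 0.153). mt-Rnr2 (chrM:1094-2675, plus strand), the rRNA of the large subunit, had 1018, 817, 1508 and 859 FPKM in Zeb2+/- and 459.7, 504, 765 and 686 FPKM in WT, also without overlap, at 0.79 (SE 0.26, adjusted p = 0.155). By limma 0 of 2 passed the adjusted threshold and 2 of 2 were higher before adjustment, against 10.02% of all genes. Neither passed in any of the 24 settings, with adjusted p of 0.0548 to 0.362 for mt-Rnr1 and 0.0514 to 0.371 for mt-Rnr2. Their part in the mitochondrial reads was 3.44, 1.97, 3.0 and 2.55% in Zeb2+/- libraries 1 to 4, against 1.87, 2.31, 2.58 and 2.75% in WT libraries 1 to 4. These shares overlapped, and after poly-T selection they do not describe the rRNA content of the tissue.

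In the main limma test, on the deposited FPKM, the called changes of the set were in tRNA genes. Other settings given above called messengers as well, and voom on the rebuilt totals called no tRNA gene. Of 22 tRNA genes 18 were tested in the main test and 16 had a positive log2 fold change. Of the 18 tested, 3 rose and 0 fell, where 0.468% of all genes were called higher. The median log2 fold change was 0.95, with 1.21 for 10 heavy-strand and 0.75 for 8 light-strand tRNA genes. The sequences of the 3 that rose are shown with that of mt-Tp, the tRNA gene with the most reads, as GENCODE M21 gives them on GRCm38.
mt-Tg (chrM:9391-9458, plus strand): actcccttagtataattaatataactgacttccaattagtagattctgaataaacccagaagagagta
mt-Ts2 (chrM:11613-11671, plus strand): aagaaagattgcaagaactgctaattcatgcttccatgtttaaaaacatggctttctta
mt-Te (chrM:14071-14139, minus strand): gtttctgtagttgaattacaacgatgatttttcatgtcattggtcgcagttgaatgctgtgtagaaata
mt-Tp (chrM:15356-15422, minus strand): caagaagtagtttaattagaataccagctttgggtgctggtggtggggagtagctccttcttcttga
The genes are 68, 59, 69 and 67 bases long. Which molecules gave their reads (mature tRNAs, or precursors and messengers that still carry a tRNA) was not tested. mt-Tg lies directly behind mt-Co3 and before mt-Nd3, mt-Ts2 between 2 other tRNA genes, overlapping mt-Tl2 by 1 base, and mt-Te on the other strand between mt-Nd6 and mt-Cytb.

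mt-Tg, the tRNA for glycine, held 110, 39, 68 and 50 reads in Zeb2+/- libraries 1 to 4, against 23, 34, 15 and 24 reads in WT libraries 1 to 4. In FPKM these were 87.0, 50.8, 83.7 and 57.3 in Zeb2+/- and 22.4, 31.1, 16.9 and 24.5 in WT. The lowest Zeb2+/- library was above the highest WT library, and the log2 fold change was 1.51 (SE 0.23, adjusted p = 0.00924). mt-Tg kept its call in 22 of 23 alternatives, with adjusted p of 0.00386 to 0.0858 over all settings. The call was lost with voom on the rebuilt totals (0.0858). Whether the unannotated 69-base gap between Gm28437 and Gm28438 holds a copy that shares mt-Tg reads could not be judged. mt-Ts2, a tRNA for serine, held 194, 51, 100 and 65 reads in Zeb2+/- and 26, 41, 26 and 48 reads in WT. The genotypes did not overlap, at 1.5 (SE 0.31, adjusted p = 0.0328), but the call was lost in 13 of 23 alternatives (adjusted p of 0.0140 to 0.123 over all settings). Among them were the fits without Zeb2+/- library 3 (0.0853) and without WT library 1 (0.116), 2 (0.0826) or 3 (0.103). mt-Te, the tRNA for glutamate, held 65, 55, 69 and 47 reads in Zeb2+/- and 38, 25, 25 and 34 reads in WT, again without overlap, at 1.06 (SE 0.21, adjusted p = 0.0300). Its call was lost in 11 of 23 alternatives (0.0134 to 0.0974 over all settings), among them without Zeb2+/- library 2 (0.0771) or 3 (0.0609) and without WT library 1 (0.0555), 2 (0.0875), 3 (0.0933) or 4 (0.0674). All 3 genes had a log2 fold change of at least 0.93 in every setting. With 15 to 194 reads a library, counting error alone is large.

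Among the other 9 tRNA genes with a mean of at least 10 reads, 0 passed by limma. Before adjustment 6 were higher (p below 0.05), against 10.02% of all genes. mt-Tp, the tRNA for proline next to the control region, held 970, 1407, 1964 and 1337 reads in Zeb2+/- and 986, 1112, 1073 and 1210 reads in WT, most of all tRNA reads in 7 of 8 libraries. In FPKM it stood at 778, 1859, 2454 and 1556 in Zeb2+/- and 976, 1031, 1228 and 1254 in WT, with Zeb2+/- library 1 below every WT library, at 0.46 (SE 0.33, adjusted p = 0.507). It made up 35.9, 65.3, 58.2 and 62.5% of tRNA reads in Zeb2+/- libraries 1 to 4, against 65.4, 66.1, 61.6 and 67.8% in WT libraries 1 to 4. Among heavy-strand tRNAs, mt-Tl2 (leucine) had 472, 241, 446 and 249 FPKM in Zeb2+/- and 112, 174, 214 and 149.6 FPKM in WT, without overlap, at 1.08 (SE 0.29, adjusted p = 0.0975). mt-Th (histidine) had 85.1, 43.6, 120.0 and 65.2 FPKM in Zeb2+/- and 22.8, 30.6, 42.3 and 28.0 FPKM in WT, also without overlap, at 1.26 (SE 0.31, adjusted p = 0.0660); without Zeb2+/- library 2 it was called higher (0.0299; 0.0122 to 0.206 over 24 settings). Together with mt-Tg, mt-Ts2 and mt-Te these were the tRNA genes with no overlap on the deposited scale.

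For the remaining well-covered tRNA genes the genotypes overlapped. mt-Tl1, the tRNA for leucine behind the rRNAs, had 158, 120.4, 285 and 145 FPKM in Zeb2+/- and 111, 55.5, 145 and 105 FPKM in WT (0.76, SE 0.34). mt-Tw (tryptophan) had 28.9, 59.5, 69.97 and 54.7 FPKM in Zeb2+/- and 19.8, 8.35, 38.9 and 14.5 FPKM in WT (1.47, SE 0.44), and only Zeb2+/- library 1 reached into the WT range. Without WT library 3, mt-Tw was called higher by limma (adjusted p = 0.0436; 0.0436 to 0.253 over 24 settings). mt-Tr (arginine) had 53.0, 18.2, 61.6 and 25.2 FPKM in Zeb2+/- and 21.5, 12.8, 18.0 and 10.2 FPKM in WT (1.17, SE 0.39). The 3 well-covered genes of the light-strand cluster between mt-Nd2 and mt-Co1 had log2 fold changes of 0.78 to 0.84. Among them mt-Tn (asparagine) had 42.4, 63.6, 94.3 and 19.8 FPKM in Zeb2+/- and 34.6, 23.6, 30.2 and 22.5 FPKM in WT (0.78, SE 0.41). mt-Tc (cysteine) had 121, 131, 185 and 70.9 FPKM in Zeb2+/- and 42.2, 55.5, 95.3 and 88.4 FPKM in WT (0.84, SE 0.34). mt-Ty (tyrosine) had 44.1, 62.1, 99.96 and 46.5 FPKM in Zeb2+/- and 25.7, 39.9, 57.2 and 23.8 FPKM in WT (0.78, SE 0.34). In each of these 3 the lowest Zeb2+/- library lay within the WT range or below it.

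The last 10 tRNA genes held too few reads to compare. mt-Ti, mt-Tq, mt-Tm, mt-Ta, mt-Ts1 and mt-Tt were tested with 0 to 21 reads a library. mt-Ts1, the second tRNA for serine, which overlaps the end of mt-Co1 by 3 bases on the other strand, had the only sizeable negative value: 0, 1, 0 and 0 reads in Zeb2+/- against 0, 6, 2 and 4 reads in WT, at -1.38 (SE 0.56, adjusted p = 0.238). Without WT library 1 it was called lower (adjusted p = 0.0444), on these same few reads, and without Zeb2+/- library 2 mt-Tm was called higher (0.0397), on 3 to 21 reads a library. Over all settings the adjusted p ran from 0.0444 to 0.569 for mt-Ts1 and from 0.0397 to 0.585 for mt-Tm. mt-Tt stood at -0.18 (SE 0.75). Below the minimum were mt-Tk, with 2 reads in all Zeb2+/- libraries together and 0 in WT, and mt-Tv, with 0 in Zeb2+/- and 2 in WT. mt-Tf and mt-Td had 0 reads in all 8 libraries. Counts as low as these neither show a difference nor show that the levels were alike.

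**Figure D5:**
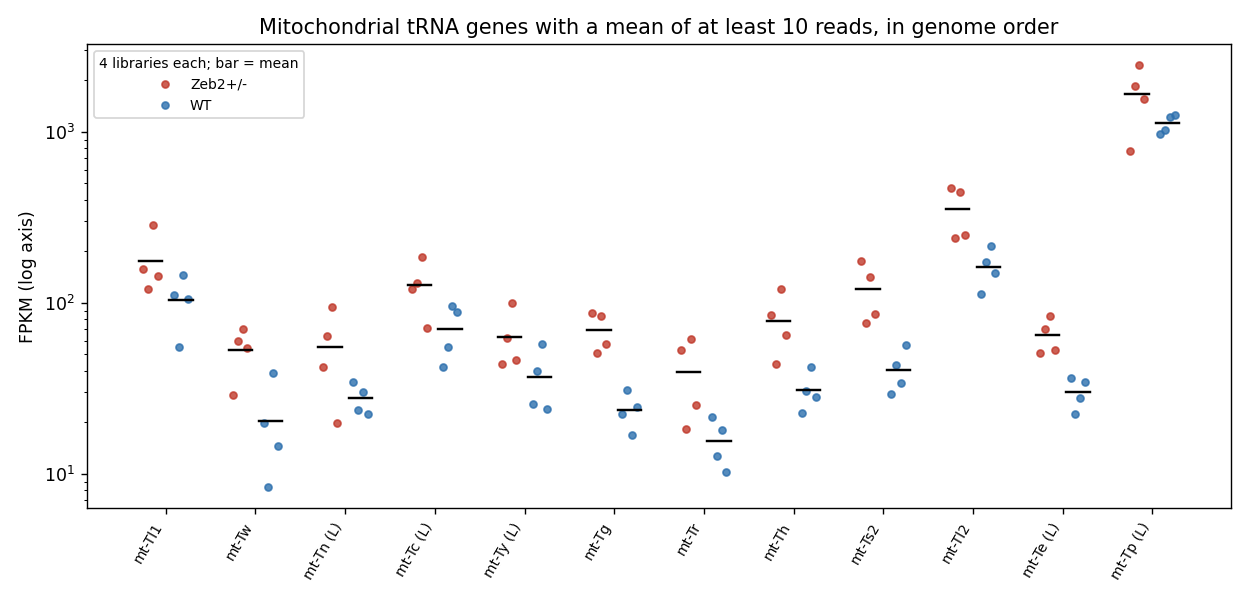
FPKM (log axis) of the 12 mitochondrial tRNA genes with a mean of at least 10 reads, in genome order, with 4 Zeb2+/- libraries to the left of 4 WT libraries for each gene, bars at the means and (L) for light-strand genes. The libraries separate for mt-Tg, mt-Th, mt-Ts2, mt-Tl2 and mt-Te and overlap for the other 7.

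The make-up of the mitochondrial reads overlapped between the genotypes in every measure taken. Protein genes held 97.0 ± 0.641% of them in Zeb2+/- and 97.4 ± 0.394% in WT, rRNA genes 2.74 ± 0.629% in Zeb2+/- and 2.38 ± 0.385% in WT, and tRNA genes 0.214 ± 0.0171% in Zeb2+/- and 0.198 ± 0.00969% in WT (SD, n = 4 each). mt-Co1 alone held 46.7 ± 0.590% of the mitochondrial reads in Zeb2+/- and 47.5 ± 0.346% in WT, mt-Cytb 15.8 ± 0.512% in Zeb2+/- and 15.7 ± 0.589% in WT, and mt-Nd1 11.7 ± 0.871% in Zeb2+/- and 10.7 ± 0.670% in WT. All these shares use reads as the authors assigned them. Reads shared with the identical nuclear copies leave the total of mitochondrial reads uncertain. By strand, the light-strand genes held 2.27, 1.86, 1.89 and 1.81% in Zeb2+/- libraries 1 to 4, against 1.75, 1.76, 1.82 and 1.99% in WT libraries 1 to 4. mt-Nd6 as a share of messenger reads was 2.25, 1.74, 1.78 and 1.71% in Zeb2+/- and 1.64, 1.65, 1.72 and 1.89% in WT. In both measures Zeb2+/- library 1 was the highest of all 8, and the other 3 Zeb2+/- libraries lay within the WT range.

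Nuclear genes that act on mitochondrial DNA and RNA held 0 called genes by limma, where 3.24% of all genes tested were called. Of 16 tested genes of mitochondrial transcription and replication, 13 had a positive log2 fold change (median 0.11). Before adjustment 3 of the 16 were higher (p below 0.05), against 10.02% of all genes. Twnk, the helicase of the mitochondrial replication fork, stood at 6.12 ± 1.30 FPKM in Zeb2+/- and 3.79 ± 0.322 FPKM in WT (SD, n = 4 each; log2 fold change 0.56, adjusted p = 0.0743), and Tfam, which packages the DNA and starts transcription, at 12.9 ± 2.79 FPKM in Zeb2+/- and 10.004 ± 0.528 FPKM in WT (0.32, adjusted p = 0.257). The others of smallest p were Mrpl12, a ribosomal protein that also binds the RNA polymerase (0.45, 0.165), and Mterf3, a repressor of mitochondrial transcription (0.30, 0.336). Of 26 tested genes of mitochondrial RNA cleavage, tailing, stability and decay, 16 were positive (median 0.04). Even without adjustment 0 passed, against 10.02% of all genes higher and 8.91% lower. Those of smallest p were the rRNA methyltransferase Mrm1 (0.50, adjusted p = 0.271) and the RNA-binding Ptcd1 (-0.24, 0.295). Next came Fastkd5, which in human cells is needed to mature some messengers (0.42, 0.315), and the deadenylase Pde12 (-0.21, 0.373). Of 10 regulators of mitochondrial biogenesis, 7 were negative (median -0.08). At an unadjusted p below 0.05, 3 were lower, against 8.91% of all genes. Ppara, the fatty-acid-sensing nuclear receptor, stood at 8.32 ± 3.25 FPKM in Zeb2+/- and 16.1 ± 2.77 FPKM in WT without overlap (-0.96, adjusted p = 0.129), and the coactivator Ppargc1b (-0.41, 0.262), the receptor Esrrg (-0.27, 0.262) and Gabpb1, a subunit of the factor GABP (0.27, 0.293) followed. Voom called 0 genes of these 3 lists on either total, except Ppara on the rebuilt totals (adjusted p = 0.0468). On those totals it called 187 of 12190 genes lower.

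The nuclear-encoded partners of the mitochondrial subunits also stood higher more often than lower, without a call by limma. Of 47 partners in complexes I, III, IV and V, 34 had a positive log2 fold change, with a median of 0.28 against 0.67 for the mitochondrial messengers and 0.00 for all genes tested. By limma 0 passed the adjusted threshold, 18 were higher at an unadjusted p below 0.05, against 10.02% of all genes, and in 18 all Zeb2+/- libraries lay above all WT libraries, against 7.65%. The 4 of smallest p were the complex I subunits Ndufa5 (adjusted p = 0.0572), Ndufs7 (0.0648) and Ndufb10 (0.0730) and the complex IV subunit Cox5a (0.0972). Voom on the implied totals called Ndufa5 (0.0465), against 0.377% of all genes called higher, and on the rebuilt totals 0 partners. Ndufs7, a complex I subunit that carries an iron-sulphur cluster, stood at 101 ± 9.05 FPKM in Zeb2+/- and 70.03 ± 5.28 FPKM in WT. The difference between messengers and partners was not tested. Of 8 RNAs listed here as kept in the nucleus, 7 were among the deposited genes and 3 were tested, and 0 passed by limma or voom. Where each of these RNAs resides was not tested. Their log2 fold changes were, for Mir17hg, 0.75 (limma's adjusted p = 0.0876), for Neat1 0.61 (0.276) and for Malat1 0.03 (0.970).

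Markers of several cell types differed between the genotypes in the same libraries. Of the enterocyte markers 0 of 16 passed by limma and 1 was lower at an unadjusted p below 0.05, against 8.91% of all genes. Their summed level was 16503 to 50738 FPKM in Zeb2+/- and 26539.9 to 38878 FPKM in WT. Of the markers of duodenal position 0 of 5 tested passed, also without adjustment, with sums of 168 to 259 FPKM in Zeb2+/- and 198 to 219 FPKM in WT. Smooth muscle markers were positive in 14 of 14 with Hspb6 past the threshold; 9 were higher at an unadjusted p below 0.05, against 10.02% of all genes, and in 6 all Zeb2+/- libraries lay above all WT libraries, against 7.65%. They summed to 450 to 1169 FPKM in Zeb2+/- and 356 to 468 FPKM in WT; Tagln, a defining marker, was below 1 FPKM in all 8 libraries. Of all 12190 genes tested by limma, 338 were called lower. Pancreatic acinar markers were negative in 14 of 14 and called lower in 13. They summed to 4.84 to 26.6 FPKM in Zeb2+/- and 225 to 3099 FPKM in WT. Macrophage and dendritic markers were negative in 12 of 12 and called lower in 9. Their sums were 21.2 to 64.1 FPKM in Zeb2+/- and 142 to 161 FPKM in WT. Fibroblast and matrix markers were negative in 12 of 12 and called lower in 6. These summed to 123 to 154 FPKM in Zeb2+/- and 185 to 240 FPKM in WT. Plasma cell markers were negative in 9 of 9 and called lower in 2, with 191 to 1321 FPKM in Zeb2+/- and 3779 to 5874 FPKM in WT. Of striated muscle markers 0 of 2 tested passed, also without adjustment (4.49 to 14.0 FPKM in Zeb2+/- and 5.20 to 6.89 FPKM in WT), with Myh1 and Myh4 at 0. Adipocyte markers passed in 0 of 3 tested, also without adjustment (3.30 to 159 FPKM in Zeb2+/- and 3.80 to 37.9 FPKM in WT), with Ucp1, the marker of brown fat, at 0. Erythroid markers passed in 0 of 2 tested and 1 was lower without adjustment, against 8.91% of all genes. Their sums were 3.11 to 12.3 FPKM in Zeb2+/- and 11.5 to 34.9 FPKM in WT. Voom on the rebuilt and the implied totals called 2 and 3 acinar, 5 and 10 macrophage, 4 and 6 fibroblast, 1 and 1 plasma cell and 0 and 1 smooth muscle markers, and 0 of the other marker lists. Over all 12190 genes voom called 187 lower and 15 higher on the rebuilt totals. On the implied totals it called 276 lower and 46 higher. The part of these cell types in the mitochondrial share of reads was not tested.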

How the data were processed

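Poly-A RNA of duodenum from 4 Zeb2+/- and 4 WT libraries was sequenced as directional libraries, per the labels' protocols. Per the submitters' processing notes, the authors used HISAT2 2.0.5, featureCounts 1.5.0-p3 and GRCm38 (mm10); the values analysed are their deposited FPKM per gene. FPKM times gene length gave whole reads for 100% of values (tolerance 0.01), which set read shares and voom alternatives. Shares of reads are given with their spread between libraries. limma 3.58.1 in R 4.3.3 (lmFit, eBayes with trend and robust) tested log2(FPKM + 1) for the 12190 genes with a mean of at least 1 FPKM, with Benjamini-Hochberg adjustment and a threshold of 0.05; fold changes of low genes are understated on this scale. The scripts were tested on simulated data. Sequences were aligned with Biopython 1.88 to GENCODE M21 transcripts, whose coordinates matched all 37 genes. Named were all protein and rRNA genes, tRNA genes with a mean of at least 10 reads, and of each list the called genes or else up to 4 of smallest p; other named features were chosen after their values were seen. Gm10222 was added to the nuclear copies by its position, after its values were seen. Members and lists were chosen with earlier results of these data known. Other pseudocounts, filters, scalings, models, a replicate block and left-out libraries were tried. The labels state no pairing by replicate number, and the main test used none. Columns of other samples numbered 0.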

Additional observations from a re-analysis of the deposited data

Results flagged for a closer look

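A single library stood apart from the other 3 of its genotype in 16 of 160 groups examined. Chance picks about 1 group in 20 only where groups are independent and normally distributed. Several of these groups share reads, as the light-strand and mt-Nd6 shares do, so no excess over that rate is read from the count. Zeb2+/- library 3 was apart for mt-Rnr1 (highest, 1258 FPKM) and for the nuclear RNA Neat1 (highest, 34.8 FPKM), and Zeb2+/- library 2 for mt-Nd4l (highest, 314 FPKM). Zeb2+/- library 1 was apart in 7 groups. It had the highest share of light-strand genes in mitochondrial reads (2.27%), of mt-Nd6 in mitochondrial messenger reads (2.25%) and in all mitochondrial reads (2.16%), and of mt-Nd3 (0.0888%). It also had the lowest share of mt-Rnr1 in the reads of both rRNAs (30.4%), the highest Tfam (17.1 FPKM) and the lowest Ppara (3.49 FPKM). The same library held the highest level of most smooth muscle markers, for example 251 FPKM of Acta2 against 93.2 to 150.4 FPKM in the other Zeb2+/- libraries.

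Among WT libraries, library 1 was apart for the share of mt-Nd4 (highest, 7.87% of mitochondrial reads), Mterf3 (lowest, 3.02 FPKM) and Ndufs7 (lowest, 62.1 FPKM). WT library 2 was apart for the share of mt-Nd3 (highest, 0.0859%). WT library 4 was apart for the pseudogenes Gm29216 (highest, 402 FPKM) and Gm28437 (highest, 148 FPKM), the nuclear copies of mt-Co1 and mt-Co3.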

How the results depend on the processing

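The median log2 fold change of the 13 mitochondrial messengers, 0.67, was positive in every setting tried, from 0.45 with quantile normalization to 0.82 without Zeb2+/- library 1, and was 0.52 to 0.82 when single libraries were left out. The number of mitochondrial genes called was 3 of 33. It was 1 with no filter, 7 with totals of reads outside the mitochondrial genome, 9 with array weights, 5 with voom on rebuilt reads and 1 to 4 with single libraries left out. Among alternatives chosen after seeing the data it was 6 with rebuilt totals, 1 with voom on the implied totals and 1 without Zeb2+/- libraries 1 and 3 together. Over all genes 395 were called (57 higher, 338 lower). There were 157 at a mean FPKM of at least 5, 202 with voom, 257 with rebuilt totals, 1187 with array weights (493 higher, 694 lower), and 218 to 487 with single libraries left out, the fewest without WT library 1. The higher calls alone were 13 without WT library 1, 99 without Zeb2+/- library 1 and 20 with no filter. With TPM scaling the median of all genes was -0.10 and 4.74% of 380 calls were higher, against 14.4%. The mitochondrial share of reads differed by 2.77 percentage points (2.51 to 3.004 with single libraries left out), and by 4.99 with FPKM sums. The share of mt-Nd6 in messenger reads differed by 0.144 percentage points, and by 0.0192 without Zeb2+/- library 1. With the replicate block, 299 genes and 4 mitochondrial genes were called (mt-Ty, mt-Tg, mt-Tr and mt-Th). Samples of equal number correlated at 0.24, -0.16, 0.33 and -0.19 in their deviations. Samples of unequal number correlated at -0.38 to 0.20. The labels state no pairing, and whether equal numbers share a batch cannot be judged from these values.

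Signs turned for 3 genes that were not called. mt-Tt stood at 0.0047 with a pseudocount of 5, 0.0055 with voom on the implied totals and -0.90 to 0.18 with single libraries left out (above 0 without Zeb2+/- library 2, 3 or 4 or WT library 1 or 4), mt-Tq at -0.12 without Zeb2+/- libraries 1 and 3, and mt-Atp8 at -0.23 without Zeb2+/- library 3; the cause was not tested. Low read counts limit the tRNA genes, and poly-T selection limits any reading of tRNA, rRNA and mt-Nd6 levels. Identical nuclear copies limit 5 messengers and parts of mt-Nd4 and mt-Co1. Copies of mt-Atp8 and of tRNA genes such as mt-Tg in unannotated gaps could not be judged. The labels do not state the origin of the authors' library scale, which changes which messengers pass.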
